A study of Homo sapiens with 8 samples.

Results

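Complement is a cascade of plasma and cell-surface proteins that marks targets for removal and can puncture membranes. Its classical arm runs from the proteases C1r and C1s to C4 and C2, its alternative arm through factor B, and both meet at C3, whose cleavage leads on to C5. Factor I switches the cascade off by cutting the active fragments C3b and C4b. The liver makes most circulating complement, and epithelial cells, pancreatic tumour cells among them, are known to make some components of their own.

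The transcripts of 9 complement components were examined out of 58870 genes in the deposited table: C1R, C1S, C2, C4A, C4B, C3, CFB (factor B), CFI (factor I) and C5. All 9 symbols were found, once each. They were selected on the measured C4 levels, which were higher in the cells with the transgene, so their differences in this same comparison are given as a description, without p-values, and their number supports nothing.

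RNA sequencing covered 8 samples of CFPAC-1, an established line of human pancreatic ductal adenocarcinoma. The 4 empty-vector samples carried the vector alone, the 4 ADRA2A samples carried a transgene for the alpha-2A adrenergic receptor, and all were grown for 72 h without treatment. The promoter of the transgene, and whether each line was a clone or a pool, are not given in the sources used here. The labels do not say that replicates were separate cultures or transductions, so p-values measure only the spread between these samples, which may be technical.

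Levels are given as CPM, the counts of a gene relative to its TMM-scaled library total. Values after ± are the SD for levels and the SE for log2 fold changes, with n = 4 libraries per group. Library totals ran from 14427040 to 17528910 estimated counts. ADRA2A had 0 counts in all 4 empty-vector libraries and between 112 and 172 counts in the ADRA2A libraries. Of 8 ductal epithelial markers 7 passed the filter on low counts, with a summed 11800 to 12400 CPM in the empty-vector libraries and 11500 to 12600 CPM in the ADRA2A libraries, whereas CFTR held only 4 to 20 counts per library. Of the 7, edgeR called 2 higher (KRT19 and EPCAM, log2 fold changes 0.20 and 0.11) and 4 lower (KRT7, CDH1, SOX9 and KRT18, -0.43, -0.33, -0.21 and -0.09). Of 7 hepatocyte markers 1 was tested and not called, their sum was 3.53 to 5.05 CPM in the empty-vector and 2.91 to 3.95 CPM in the ADRA2A libraries, APOA2 and APOC3 had 0 counts and albumin (ALB) at most 7. Of 7 leukocyte markers 2 were tested and 1, CD68, was called higher (log2 fold change 0.32, edgeR adjusted p = 4.22e-06). Their sum was 90.1 to 96.2 and 110 to 121 CPM, while CD163 and CD3E had 0 counts and PTPRC at most 4. Of 4 endothelial markers, summing to 2.05 to 2.71 and 2.64 to 3.35 CPM, PECAM1 was called higher (1.66) and KDR lower (-1.35), with CDH5 at most 1 count and VWF at most 4. PECAM1, at 9 to 45 counts per library, and KDR, at 5 to 21, each passed the filter only through the group where it was higher. Their calls are therefore given as a description. Of 5 fibroblast markers, summing to 2.04 to 2.49 and 1.11 to 1.66 CPM, 1 was tested and not called. In bulk RNA, more cells expressing a gene and more RNA per cell cannot be told apart.

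The C4 genes need their sequence shown, because they decide how far C4A and C4B can be measured apart. They lie side by side on the plus strand of chromosome 6 in GRCh38 (C4A, 31982057 to 32002681, and C4B, 32014795 to 32035418), each with 41 exons in its canonical GENCODE transcript. These transcripts are both 5427 bases long, differ at 13 positions and are 99.76% identical, and their first 2769 bases are the same. All 13 differences are in coding sequence, and 5 of them fall within a short stretch of exon 26, the region that defines the C4A and C4B types. That stretch is shown from chr6:31996052-31996111 (C4A) and chr6:32028790-32028849 (C4B), plus strand, with the differing bases in capitals.
C4A: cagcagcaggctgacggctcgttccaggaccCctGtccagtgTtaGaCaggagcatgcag
C4B: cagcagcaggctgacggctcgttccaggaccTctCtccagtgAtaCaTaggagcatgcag
A read that covers none of the 13 positions fits both genes, and RSEM, the program behind the deposited counts, divides such reads by estimation.

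C4 mRNA differed most of the components. C4A and C4B encode the protein that C1s cleaves and that forms the classical C3 convertase together with C2. Summed, so that the division of reads does not matter, they held 21.4, 22.9, 17.02 and 19.5 CPM in empty-vector replicates 1 to 4. In ADRA2A replicates 1 to 4 the sum was 170.5, 138.0, 138.7 and 164.7 CPM. Every ADRA2A library lay far above every empty-vector library. The sum was 7.58-fold higher, a log2 fold change of 2.92 ± 0.08 (95% interval 2.75 to 3.09).

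Taken singly, C4A went from 12.4 ± 0.972 to 78.3 ± 11.4 CPM, a log2 fold change of 2.66 ± 0.09. C4B went from 7.84 ± 3.08 to 74.7 ± 5.70 CPM, a log2 fold change of 3.26 ± 0.14. The SD of C4B was 39.2% of its mean in the empty-vector cells, and the division of reads between the genes varied there too. RSEM gave C4A 58.4%, 49.3%, 71.2% and 70.0% of the C4 counts in empty-vector replicates 1 to 4, and 53.1%, 49.6%, 49.6% and 51.9% in ADRA2A replicates 1 to 4. For counting error alone, the 95% Wilson interval was 43.8% to 54.4% in empty-vector replicate 2 and 65.9% to 76.2% in empty-vector replicate 3. These intervals treat every count as a read assigned on its own, so they are too narrow for reads divided by estimation, and whether the libraries differ by more than counting error was not tested. Both groups included values close to equal division, and the mean shares of 62.2% ± 10.4 and 51.1% ± 1.8 differed by about the spread of the empty-vector libraries.

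**Figure D1:**
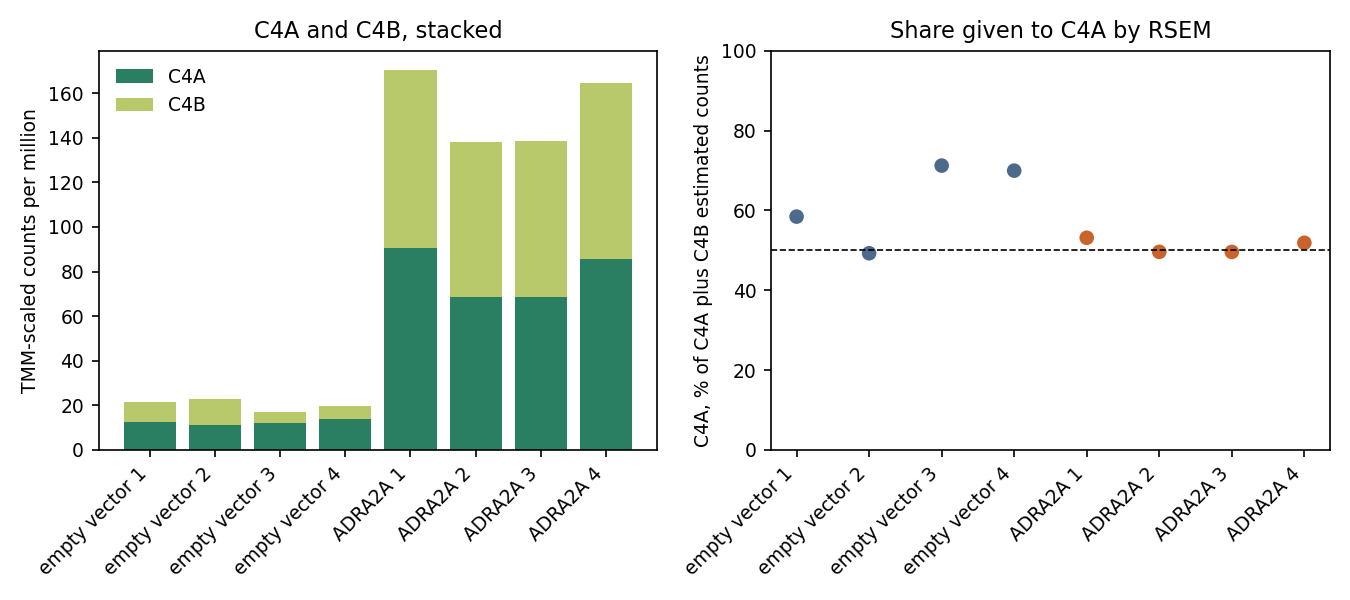
Left, TMM-scaled CPM of C4A and C4B stacked for each of the 8 libraries, with linear axis from 0. Right, the percentage of C4A plus C4B estimated counts that RSEM gave to C4A, with a dashed line at equal division. The stacked total is 17.02 to 22.9 CPM in the empty-vector libraries and 138.0 to 170.5 CPM in the ADRA2A libraries, while the share of C4A reaches 71.2% only in an empty-vector library.

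The other genes of the classical arm did not share the size of that difference. C1R (ENSG00000159403.17, chr12:7080214-7092540, minus strand), which encodes the protease that activates C1s, held 11.2, 11.2, 8.95 and 12.0 CPM in empty-vector replicates 1 to 4 and 13.6, 14.1, 16.1 and 13.5 CPM in ADRA2A replicates 1 to 4. The groups did not overlap, and the log2 fold change was 0.41 ± 0.10. C1R overlaps C1RL, a related gene on the same strand. With the counts of both added, the level was 33.6 ± 2.88 CPM without and 41.6 ± 2.17 CPM with the transgene.

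C1S (ENSG00000182326.15, chr12:6988259-7071032, plus strand), which encodes the protease that cleaves C4 and C2, was near the limit of what these libraries can measure. It had 8 to 19 counts per empty-vector library and 11 to 12 per ADRA2A library. Its groups overlapped and its log2 fold change was -0.17 ± 0.34 (95% interval -0.88 to 0.54), an interval that takes in a change of the size seen for C1R. C2 (ENSG00000166278.15, chr6:31897785-31945673, plus strand), the partner of C4 in the classical convertase, had 4 to 10 counts per empty-vector library and 4.87 to 18.2 per ADRA2A library and did not pass the filter. Fitted without the filter it had a log2 fold change of 0.86 ± 0.53 (95% interval -0.17 to 1.89), so no difference in C2 was detectable at this depth.

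Factor B and C3 form the convertase of the alternative arm, which feeds back on C3. CFB (ENSG00000243649.8, chr6:31945650-31952086, plus strand) held 89.5, 90.1, 53.9 and 71.2 CPM in empty-vector replicates 1 to 4 and 385.9, 299.2, 319.6 and 362.8 CPM in ADRA2A replicates 1 to 4. The lowest ADRA2A library thus stood well above the highest empty-vector library. The log2 fold change of CFB was 2.17 ± 0.11, or 4.5-fold. C3 (ENSG00000125730.16, chr19:6677704-6730562, minus strand) held 233.5, 233.0, 178.9 and 198.2 CPM in the empty-vector replicates and 650.0, 586.1, 590.1 and 654.2 CPM in the ADRA2A replicates. Again no library crossed over, and the log2 fold change was 1.56 ± 0.06, or 2.94-fold.

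A transcript annotated across C2 and CFB, AL645922.1, could take reads of either gene. It held 0 to 2.24 counts per empty-vector library and 2.91 to 12.3 counts per ADRA2A library. Added to CFB it left the ratio of group means at 4.49. Added to C2 it gave 0.401 ± 0.149 and 1.13 ± 0.176 CPM, which did not overlap between the groups, so what is seen for C2 depends on which of these rows holds its reads.

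CFI (ENSG00000205403.13, chr4:109731008-109802150, minus strand), the inhibitor among the components, was also higher. It held 83.7, 90.9, 80.4 and 84.0 CPM in empty-vector replicates 1 to 4 and 200.9, 174.3, 187.9 and 187.1 CPM in ADRA2A replicates 1 to 4. The spread within each group was narrow, at 5.22% and 5.78% of the mean, and the groups lay far apart. Its log2 fold change was 1.15 ± 0.05, or 2.21-fold. A longer transcript on the same strand, AC126283.2, overlaps CFI and held 92.2 to 273.6 counts per library without separating the groups. With it added the ratio of means was 2.10.

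C5 (ENSG00000106804.7, chr9:120932987-121075195, minus strand), which opens the terminal part of the cascade, was not called. It held 3.28, 2.65, 1.98 and 3.08 CPM in empty-vector replicates 1 to 4 and 2.49, 1.72, 2.98 and 3.10 CPM in ADRA2A replicates 1 to 4. These values overlap throughout. The log2 fold change was -0.09 ± 0.23 (95% interval -0.57 to 0.39), an interval whose upper end lies below the values of C4, CFB, C3 and CFI.

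**Figure D2:**
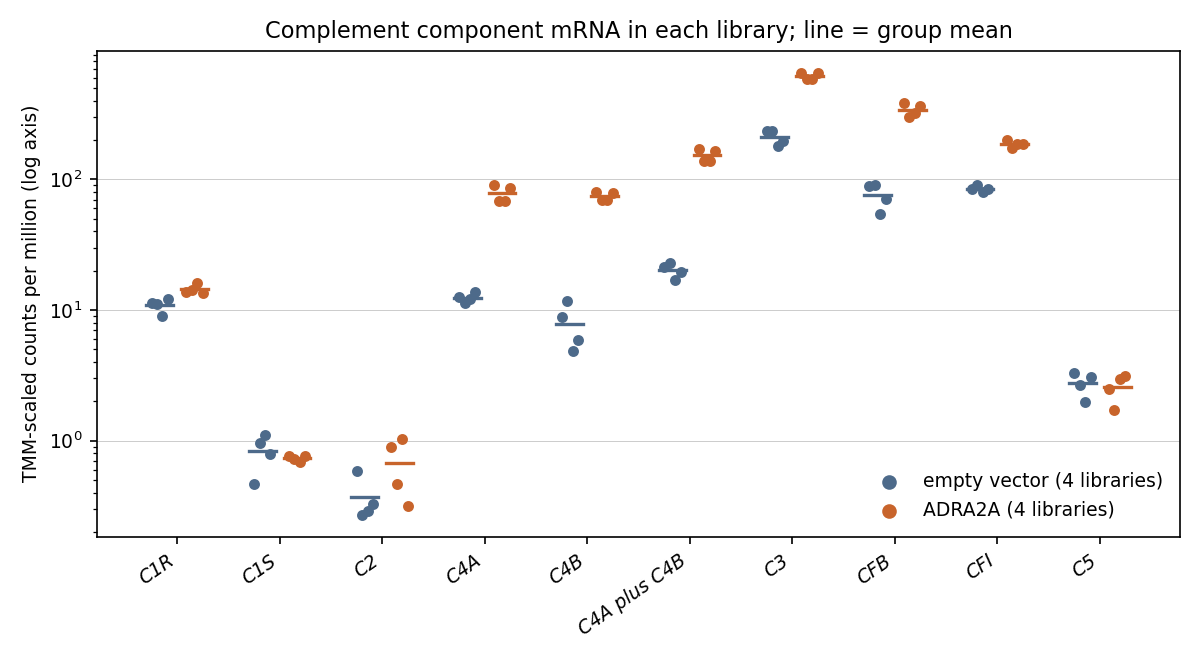
TMM-scaled CPM on a log axis for each component and for C4A plus C4B, with 1 point per library (4 empty-vector, 4 ADRA2A) and a line at the group mean. C4A, C4B, CFB, C3, CFI and C1R have no overlap between the groups, whereas C1S, C2 and C5 overlap at below 5 CPM.

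In the edgeR fit over 14785 genes, 8 of the 9 components were tested and 6 were called higher at an adjusted p under 0.05, with 0 called lower. Of all genes tested 42.7% were called, 21.6% in the higher direction, and nothing is read from the comparison because C4 in this contrast chose the list. For the same 6, no library of one group reached the other group, as for 39.2% of all genes tested in either direction and 19.7% in the higher direction. Of these, 5 had a log2 fold change of 1 or more, all but C1R, against 2.55% of all genes tested called higher with that size. The median log2 fold change of the 8 was 1.35, beside 0.00 over all genes tested. Together the 9 components took 406.8 ± 51.1 CPM of the empty-vector libraries and 1321 ± 101.0 CPM of the ADRA2A libraries.

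Levels were compared between genes as CPM per kilobase of merged exons. In the empty-vector cells the order was C3 (18.2 ± 2.33), CFI (15.9 ± 0.832), CFB (14.3 ± 3.25), C1R (1.87 ± 0.23), C4A (1.73 ± 0.136), C4B (1.09 ± 0.429), C5 (0.162 ± 0.034), C1S (0.100 ± 0.033) and C2 (0.052 ± 0.021). Neighbours overlapped in this order except at the steps from CFB to C1R and from C4B to C5. In the ADRA2A cells CFB came first at 64.4 ± 7.44 and C3 next at 53.5 ± 3.20, and these overlapped. CFI followed at 35.3 ± 2.04, and C4A (10.9 ± 1.59) and C4B (10.4 ± 0.794), which overlapped each other, had moved above C1R (2.47 ± 0.205). With the length of the canonical transcript in place of merged exons, a length chosen after the data were seen, CFI (42.9 ± 2.24) stood before C3 (40.3 ± 5.16) in the empty-vector cells, the pair still overlapping. With that length C1R (3.6 to 4.84) and C4A (2.08 to 2.51) no longer overlapped in the empty-vector cells.

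The promoter of CFB is shown as that of the component with the largest difference for which RefSeq (GRCh38.p14) gave an entry, with that of CFI beside it. Entries were found for C1R, C2, CFB, CFI and C5, 5 of the 9, and not for C1S, C3, C4A and C4B. The 250 bases before the RefSeq start are chr6:31945845-31946094, plus strand, for CFB and chr4:109802000-109802249, minus strand, for CFI. These starts differ from those of the GENCODE genes given above. The CFB window lies inside the GENCODE gene, and the CFI window lies partly inside it. Capitals mark matches, on either strand, to any of 5 motifs: the interferon-stimulated response element core (GAAA, any 2 bases, GAAA), the gamma-activated site TTCNNNGAA bound by STAT proteins, the E-box CACGTG, the C/EBP pattern TTGCNNAA and the TATA box TATAAA.
CFB: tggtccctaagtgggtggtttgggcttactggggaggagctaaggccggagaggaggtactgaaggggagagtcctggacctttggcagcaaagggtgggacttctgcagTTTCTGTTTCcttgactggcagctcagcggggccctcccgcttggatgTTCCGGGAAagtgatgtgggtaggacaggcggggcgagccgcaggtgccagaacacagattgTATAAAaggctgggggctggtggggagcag
CFI: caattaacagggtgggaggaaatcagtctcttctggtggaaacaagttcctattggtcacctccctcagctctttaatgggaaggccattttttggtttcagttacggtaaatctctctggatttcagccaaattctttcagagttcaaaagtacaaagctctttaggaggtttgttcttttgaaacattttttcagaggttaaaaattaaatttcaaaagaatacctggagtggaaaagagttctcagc
The CFB window held 3 matches, which do not overlap: the response element core at -140, the gamma-activated site at -92 and the TATA box at -30. Positions are counted to the first base of the match from the RefSeq start. Of 35116 promoter entries, 3.02% held the response element core, 6.57% the gamma-activated site, 6.34% the E-box, 9.05% the C/EBP pattern and 10.7% the TATA box in the same 250 bases. The CFI window held none of the 5. Among the entries not shown, those of C1R held a gamma-activated site and the C/EBP pattern, and those of C2 held the E-box. The entries of C5 held no match. A match describes the letters and is not a measured site.

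Complement genes outside the chosen set were then tested, from 5 lists of 48 genes by role. Of these 13 passed the filter, and edgeR's quasi-likelihood test with Benjamini-Hochberg adjustment over all genes called 8 higher and 2 lower, where 42.7% of all genes tested were called. Their median log2 fold change was 0.32. C4BPA, among those called higher, passed the filter only through the ADRA2A libraries.

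Soluble regulators, which restrain the cascade in fluid, included the largest of these differences that are given here. SERPING1, the inhibitor of C1r and C1s, averaged 8.55 ± 0.808 CPM without and 31.4 ± 2.33 CPM with the transgene and rose by 1.87 ± 0.09 on the log2 scale (edgeR adjusted p = 1.28e-12). C4BPA, the alpha chain of the C4b-binding protein, rose by 2.66 ± 0.28 on the log2 scale, from 0.890 ± 0.263 to 5.67 ± 1.93 CPM at 9 to 112 counts per library (edgeR adjusted p = 2.06e-07). At 0.589 to 1.22 CPM in the empty-vector libraries, it passed the filter only through the ADRA2A libraries, where it was high. The call of C4BPA is therefore given as a description. The beta chain gene C4BPB did not pass the threshold, with a log2 fold change of 0.26 ± 0.23 (95% interval -0.21 to 0.74; edgeR adjusted p = 0.379).

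CLU, which encodes clusterin, an inhibitor of the membrane attack complex, fell by 0.26 on the log2 scale (edgeR adjusted p = 0.0102), a call that ended without empty-vector replicate 2 (adjusted p = 0.0501). CFHR3, a soluble complement regulator gene, had a log2 fold change of -0.02 ± 0.25 (edgeR adjusted p = 0.955). CFHR2, CFHR4, CFHR5, VTN, CPN1 and CPN2 had 0 counts in all 8 libraries. The CFHR genes are similar in sequence, so reads may have been divided between them.

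Of the membrane regulators, which protect a cell from its own complement, CD55 and CD46 rose. CD55, which breaks up the convertases, went from 59.0 ± 10.6 to 96.3 ± 6.02 CPM, or by 0.71 ± 0.08 on the log2 scale (edgeR adjusted p = 9.97e-07). CD46, a cofactor for factor I, was the most abundant of the tested complement genes outside the set by CPM and rose from 390.7 ± 16.1 to 472.8 ± 4.93 CPM (log2 fold change 0.28, edgeR adjusted p = 1.68e-06). CD59, which blocks the membrane attack complex, fell by 0.10 on the log2 scale (edgeR adjusted p = 0.0309), and its adjusted p rose above 0.05 in 4 of the 8 fits that left out 1 library, up to 0.114 without ADRA2A replicate 4.

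Among receptors, ITGB2, the beta chain of complement receptors 3 and 4, rose from 93.7 ± 1.5 to 131.3 ± 2.48 CPM (log2 fold change 0.49, edgeR adjusted p = 2.74e-09). The alpha chain genes ITGAM and ITGAX, with at most 8 and 13 counts per library, were not tested. C5AR1, the receptor for the C5a fragment, rose from 1.14 ± 0.536 to 4.05 ± 0.939 CPM (log2 fold change 1.81 ± 0.27; edgeR adjusted p = 2.18e-05).

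Genes that start the cascade upstream of the components were mostly silent. The 3 chains of C1q (C1QA, C1QB and C1QC), MBL2, MASP2, FCN1, FCN2 and FCN3 had 0 counts in all 8 libraries, which allows up to 0.172 to 0.208 CPM per library. C1RL rose by 0.27 on the log2 scale (edgeR adjusted p = 0.0100), and without ADRA2A replicate 4 the adjusted p was 0.0503. CFD, the protease that activates factor B, was tested at 11 to 31 counts per library and had a log2 fold change of 0.32 ± 0.31 (edgeR adjusted p = 0.432). None of the 6 terminal genes C6, C7, C8A, C8B, C8G and C9 passed the filter.

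**Figure D3:**
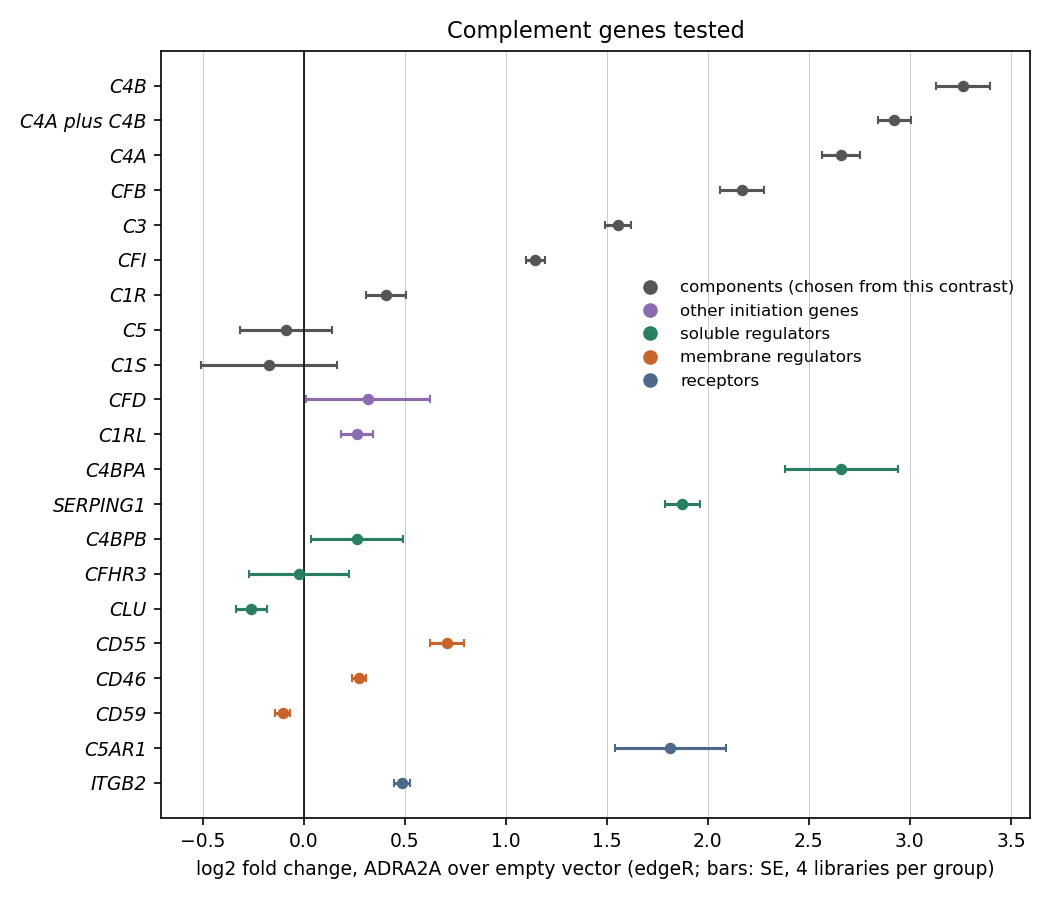
Log2 fold change of ADRA2A over empty vector from edgeR for the 8 components tested, C4A plus C4B, and 12 other complement genes tested, with bars of 1 SE and colours by role. C4A, C4B, CFB, C3, CFI, SERPING1, C4BPA and C5AR1 lie above 1, and CLU and CD59 lie below 0 with bars clear of it.

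Genes of the interferon and acute phase responses, and of signals that act in them, were compared between the groups as context. The signals themselves were not measured. An interferon response list of 28 genes, all tested, had 27 called higher and 0 lower, where 21.6% of all genes tested were called higher and 21.1% lower, and its median was 0.60 on the log2 scale. IFI6 rose from 59.98 ± 13.5 to 147.0 ± 2.27 CPM (edgeR adjusted p = 2.02e-09), BST2 by 0.65 on the log2 scale (edgeR adjusted p = 4.63e-09) and GBP2 by 0.67 (edgeR adjusted p = 1.31e-08). Of 18 acute phase genes, secreted proteins that rise in inflammation, 8 were tested and all 8 were called higher by edgeR (21.6% over all genes tested), with a median of 1.39. Those not tested included SAA1, SAA2 and HP, with at most 8.96, 10.04 and 5 counts per library. CRP, ORM1 and ORM2, also not tested, had 0 counts. Among the 8, ITIH4, at 0 to 0.697 CPM in the empty-vector libraries, passed the filter only through the ADRA2A libraries, where it was higher. The count called higher was 7 with a filter on a mean of at least 50 counts, and 7 or 8 with 1 library left out. SERPINA1, the antitrypsin gene, rose from 345.6 ± 21.1 to 921.7 ± 42.4 CPM (edgeR adjusted p = 3.20e-15), LCN2, the lipocalin gene, from 351.9 ± 39.9 to 974.2 ± 16.5 CPM (edgeR adjusted p = 5.97e-14) and CP, the ceruloplasmin gene, from 63.3 ± 13.9 to 388.5 ± 28.2 CPM (edgeR adjusted p = 6.09e-14). Of 18 receptor, kinase and transcription factor genes for these signals, 9 were called higher and 2 lower, NFKB2 and RELB, beside 21.6% and 21.1% of all genes tested. The lower count was 1 without empty-vector replicate 2 or 4 or ADRA2A replicate 2 or 4, and 3 without empty-vector replicate 1 or with upper quartile factors. HNF4A rose by 0.94, JAK1 by 0.31 and STAT3 by 0.30 on the log2 scale (edgeR adjusted p = 1.77e-09, 1.04e-06 and 1.93e-06), while SOCS3, a feedback gene of STAT3, had 0.04 (edgeR adjusted p = 0.479). The part of these signals, and of the marker genes that differed, in the complement values was not tested.

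Within the empty-vector group most components were lowest in the same library. Empty-vector replicate 3 was the lowest of its group for 6 of the 8 components tested, C3, C4B, C5, CFB, C1R and CFI, and the summed components came to 342.5 CPM there against 389.2 to 452.0 CPM in the other replicates. C1S went the other way and was highest there (1.10 CPM), and C4A was lowest in empty-vector replicate 2 (11.3 CPM). The share of all genes tested that were lowest in replicate 3 was not computed, so nothing particular to the components is read from this. Empty-vector replicate 3 was also lowest for the interferon list, whose mean centred log2 CPM was -0.63 there and -0.05 in empty-vector replicate 1, and for the acute phase list (-0.88). The acute phase list was next lowest in empty-vector replicate 2 (-0.83), where the summed components were highest (452.0 CPM). Without empty-vector replicate 3 the log2 fold change was 1.48 for C3, 2.03 for CFB and 2.85 for C4A plus C4B. Among the ADRA2A libraries, replicate 2 was lowest for 6 of the 8, again without a share over all genes, and the interferon list lay between 0.29 and 0.41 in all 4. ADRA2A replicate 1 had the highest summed components (1425 CPM), with the interferon list at 0.29.

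**Figure D4:**
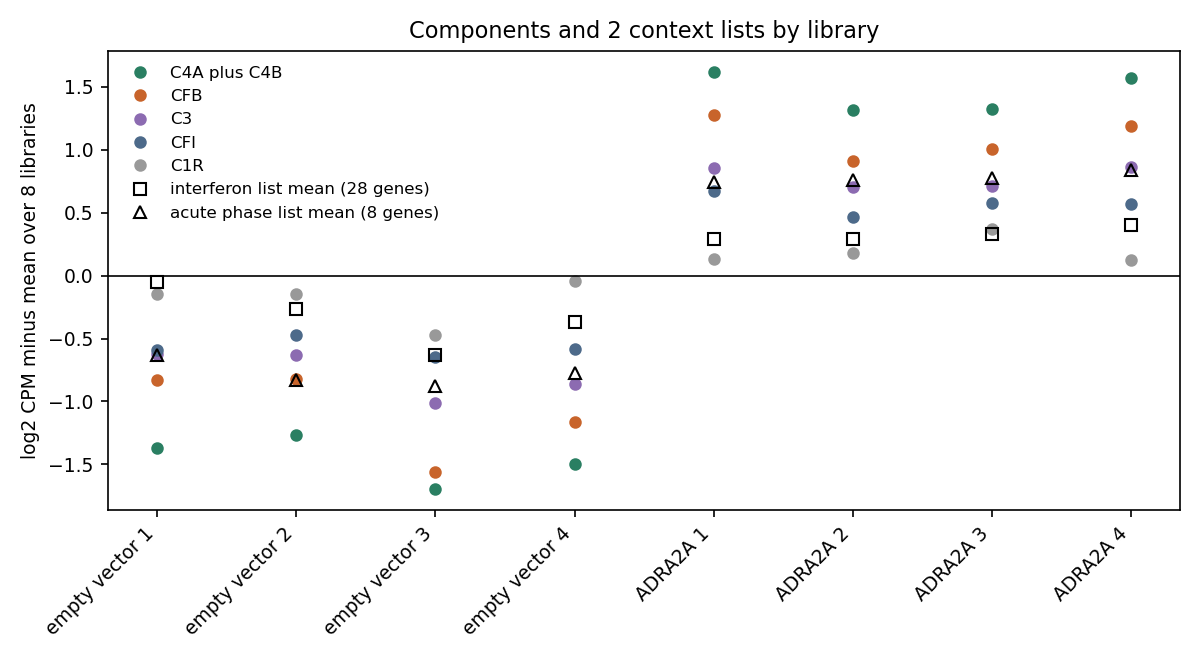
Log2 CPM minus its mean over the 8 libraries, for 5 components (filled points) and for the mean of the interferon and acute phase lists (open symbols), by library. All empty-vector values lie below 0 and all ADRA2A values above it. Empty-vector replicate 3 has the lowest value of its group for each series plotted. C1S, which was highest in that library, is not plotted.

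Genes around the components were tested next. Within 500 kb of the start of C4A, 51 other genes were tested, of which 10 were called higher and 5 lower, where 21.6% and 21.1% of all genes tested were called, and the median difference was 0.05 on the log2 scale. The largest change there was that of AL671762.1, at a log2 fold change of 2.40 ± 0.65 (edgeR adjusted p = 0.00545), from 0.716 ± 0.545 to 3.77 ± 2.58 CPM with overlap between the groups. At that level in the empty-vector libraries, it did not pass the filter without the ADRA2A libraries, where its mean was higher. Its call, counted among the 10 higher, is therefore given as a description. From CFB to C4A run 4 coding genes, of which NELFE and SKIV2L fell by 0.27 and 0.20 on the log2 scale (edgeR adjusted p = 6.48e-05 and 0.00211) and DXO and STK19 had adjusted p-values of 0.237 and 0.231. STK19, on the same strand as C4A, overlaps the start of C4A in the annotation, so these genes may share reads. It held 192 to 264.03 counts per empty-vector library and 216.03 to 250.12 per ADRA2A library. Medians around the other components lay between -0.02 (C3, 17 genes, and CFI, 8 genes) and 0.06 (C1R, 26 genes, CFB, 52 genes, and C4B, 50 genes). The largest differences there were those of TNFSF14 near C3 (2.02), STOM near C5 (1.06), CD163L1 near C1R and C1S (-1.55) and ELOVL6 near CFI (-0.48), all log2 fold changes.

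The genes most like C4A plus C4B over the 8 libraries were found by the root mean square difference between centred log2 CPM values. CDH16, a cadherin of kidney epithelium, was closest at 0.16, followed by CP at 0.18, CNR1, a cannabinoid receptor gene, at 0.19, SPP1, the osteopontin gene, at 0.19, and USH1C, a brush border scaffold gene, at 0.20. CDH16 was also the faintest of the 5, at 0.891 ± 0.233 CPM in the empty-vector cells. CFB ranked 21st on this measure (0.38) and C3 74th (0.68).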

How the data were processed

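Total RNA of 8 CFPAC-1 samples was sequenced, and the authors deposited 1 table of RSEM expected counts per gene and library, not scaled between libraries. Per the submitters' processing notes the build was hg38 and the tools were cutadapt, STAR, RSEM and DESeq2. Their versions, the annotation release and the use of strand are not given in the sources used here, so overlapping and antisense genes may share reads. Groups came from the sample titles, which also name all 8 columns.

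Expected counts were rounded. edgeR 4.0.16 (R 4.3.3) kept 14785 genes with filterByExpr, scaled libraries by TMM (trimmed means of log ratios; factors 0.9938 to 1.0055) and tested group with its quasi-likelihood test, with Benjamini-Hochberg adjustment over all genes tested and a threshold of 0.05. C4A plus C4B was fitted with both rows replaced by their sum. The SE is the log2 fold change over the square root of F. Centred log2 CPM used a prior count of 2. The step was tested on simulated data.

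GENCODE 44 on GRCh38 gave positions, lengths and transcripts (99.4% of identifiers matched), and RefSeq the promoters. Components, lists and rules were chosen with earlier results of these data known. Named genes were all components, the tested genes of the complement lists (some results are not reported here, though they enter the counts), the 3 smallest p-values of each context list, the 5 genes most like C4, the largest change within 500 kb, and overlapping transcripts. SOCS3, NFKB2, RELB, ITIH4, markers and the genes beside C4 were added after their values were seen. Alternatives were RLE and upper quartile factors, DESeq2 1.42.0, limma 3.58.1 voom, 2 other filters, a replicate block and leaving out each library.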

Additional observations from a re-analysis of the deposited data

Results flagged for a closer look

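C5AR1 in empty-vector replicate 1 stood apart from its group. It was at 1.93 CPM, where the other 3 empty-vector libraries lay between 0.785 and 0.95 CPM. Without that library the log2 fold change of C5AR1 was 2.21 in place of 1.81. This was 1 of 48 groups of 4 libraries examined, and chance alone flags about 1 in 20.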

How the results depend on the processing

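Over all alternatives, 6 components were called, and C4A plus C4B kept a log2 fold change between 2.85 and 2.99 with 1 library left out and between 2.905 and 2.924 otherwise. Genes called over all genes tested numbered 5703 to 6042 with 1 library left out and 5823 to 6550 otherwise, and complement genes outside the set 8 to 10 and 9 to 11. C4B was 3.08 without empty-vector replicate 3 and 3.50 without empty-vector replicate 2. Sign changes were limited to genes near 0, with 1 library left out: C5 ranged from -0.22 to 0.064 (above 0 without empty-vector replicate 1 or ADRA2A replicate 2), C1S from -0.37 to 0.011 (above 0 without empty-vector replicate 3) and CFHR3 from -0.115 to 0.081 (above 0 without empty-vector replicate 1 or 4 or ADRA2A replicate 4). The replicate block, as same-numbered libraries share only a number (correlations of their deviations from the group means -0.08, 0.01, 0.14 and -0.07), gave 6400 genes and 6 components. C1S and C2, at fewer than 20 counts per library, limit what can be said of the classical arm.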

Other observations

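Beyond the 3' end of each C4 gene lies a copy of the steroid 21-hydroxylase gene, the active CYP21A2 after C4B and the pseudogene CYP21A1P after C4A. Both were too faint for the filter. CYP21A2 had 1.41, 0, 3.54 and 0 counts in empty-vector replicates 1 to 4 and 8.32, 5.51, 9.88 and 7 counts in ADRA2A replicates 1 to 4. CYP21A1P had 2.46 to 4 counts per empty-vector library and 5.49 to 14.1 counts per ADRA2A library. Neither overlapped between the groups. Fitted by edgeR without the filter, their log2 fold changes were 2.56 ± 0.79 (SE; adjusted p = 0.00601) and 1.74 ± 0.61 (SE; adjusted p = 0.0194). The 2 copies are similar in sequence, so the division of reads between them is uncertain, and they were singled out after their values were seen. TNXB, the next gene after CYP21A2, was tested at 9 to 29 counts per library and had a log2 fold change of 0.70 ± 0.29 (SE; adjusted p = 0.0629). With 9 counts in empty-vector replicate 3, TNXB did not pass the filter through the empty-vector libraries alone, so its difference is given as a description.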
